A study of Homo sapiens with 4 samples.

Results

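MALAT1 and NEAT1 are long non-coding RNAs that stay in the nucleus and are transcribed from genes close together on chromosome 11, with 4 other annotated genes between them in the RefSeq order. They were followed transcript by transcript among the RNAs recovered with beta-catenin from 2 human colon adenocarcinoma lines. All transcripts deposited under either gene name were taken. They came to 1 transcript, the MALAT1 isoform ENST00000508832, which is listed in both lines, out of 9880 transcripts of the HT-29 table and 11943 of the CaCo-2 table (19895 distinct transcripts in all). The number of NEAT1 transcripts listed was 0 in each line, so NEAT1 was not analysed here. The values below are therefore those of the single MALAT1 isoform.

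MALAT1 RNA gathers in nuclear speckles, bodies rich in splicing factors. Its primary transcript is cut by RNase P near the 3′ end, which leaves a mature RNA with a triple-helix end in place of a poly(A) tail and releases a small tRNA-like RNA. NEAT1 is the architectural RNA of paraspeckles: its long isoform holds NONO, SFPQ and other RNA-binding proteins together in these bodies. Both RNAs are abundant in the nuclei of many cultured cell types, and both are much studied in colorectal cancer. Beta-catenin is the co-activator of Wnt target genes and accumulates in colorectal tumour cells.

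The study used RNA immunoprecipitation followed by sequencing (RIP-Seq), in which the RNA pulled down with a protein by an antibody is compared with the RNA of the starting lysate. HT-29 and CaCo-2, both untreated, each gave 1 library of nuclear lysate without antibody (input) and 1 library of a beta-catenin precipitation (RIP), so there were 4 libraries and 1 per group. Without replicates no error between libraries can be given and no test was made. A control precipitation was not analysed here. Levels are in FPKM, the authors' deposited unit, which corrects fragment numbers for the length of the transcript and the size of the library, and sequencing depth is unknown from them.

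The deposited tables are selected, and this bears on every value below. The lowest fold of RIP over input that they hold is 1.5 in both lines, so a listed transcript is higher in the RIP by selection, and the direction of the MALAT1 ratio is no result. The lowest RIP level listed was 1.31 FPKM in HT-29 and 0.842 FPKM in CaCo-2. Transcripts of MALAT1 or NEAT1 below that fold or those levels were not analysed here. Whether either limit left out NEAT1 was not tested. Of a set of 14 colon epithelial markers, HT-29 had a listed transcript for 8 and CaCo-2 for 6, with the keratin KRT18 the highest (RIP levels of 54.3 FPKM and 32.0 FPKM). Of the 3 goblet cell markers, 1 was listed in each line. Of the 6 enterocyte markers, HT-29 had 0 and CaCo-2 had 2. Of the 7 immune, stromal and endothelial markers, 0 were listed in either line.

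ENST00000508832 is a short, internal isoform of the class lincRNA. It lies on the plus strand of chromosome 11 at 65269807 to 65271080 (hg19) and spans 1274 nucleotides. The locus that the authors' software assembled around it runs from 65265233 to 65273940, a length of 8708 nucleotides. The isoform starts 4574 nucleotides after the start of that locus and ends 2860 nucleotides before its end, so it covers 14.6% of the gene body and leaves out both ends. It was the 1 transcript listed from this locus in each line. A single listed transcript was the usual case: it held for 67.6% (HT-29) and 64.9% (CaCo-2) of gene names. Fragments from the shared gene body are divided by such software among overlapping isoforms. The levels of the longer MALAT1 transcripts were not analysed here, so the values show how fragments were assigned to this isoform and not the level of MALAT1 as a whole. The strandedness of the libraries is not given in the sources used here, so MALAT1 fragments and those of its antisense partner TALAM1 cannot be told apart. The sequence of the isoform was not analysed here.

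In HT-29, the input level of the MALAT1 isoform was 1.18 FPKM and its RIP level 83.0 FPKM. In CaCo-2 the input level was listed at 0 and the RIP level was 128 FPKM. Both RIP libraries were thus high and both input libraries low. The deposited fold in HT-29 was 70.6 in the authors' deposited table, and no fold is given for CaCo-2, where the input is listed at 0. An input of 0 for this isoform does not show that MALAT1 RNA was absent from the CaCo-2 nuclei. With 1 FPKM added to both libraries, the log2 ratio of RIP over input was 5.27 in HT-29 and 7.01 in CaCo-2. At this ratio the isoform passed 2-fold in both lines, 1 of 1 listed in each. So did 56.0% of all listed transcripts in HT-29 and 40.8% of those with at least 1 FPKM in a library in CaCo-2, so passing 2-fold does not set MALAT1 apart. A transcript listed at 0 in input with at least 1 FPKM in the RIP passes by construction. This holds for MALAT1 in CaCo-2, and for 3137 of the 5529 that passed in HT-29 and 2679 of the 4129 in CaCo-2. Over all transcripts with at least 1 FPKM in a library, the median log2 ratio was 1.14 in HT-29 and 0.82 in CaCo-2, well below the ratios of MALAT1.

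**Figure D1:**
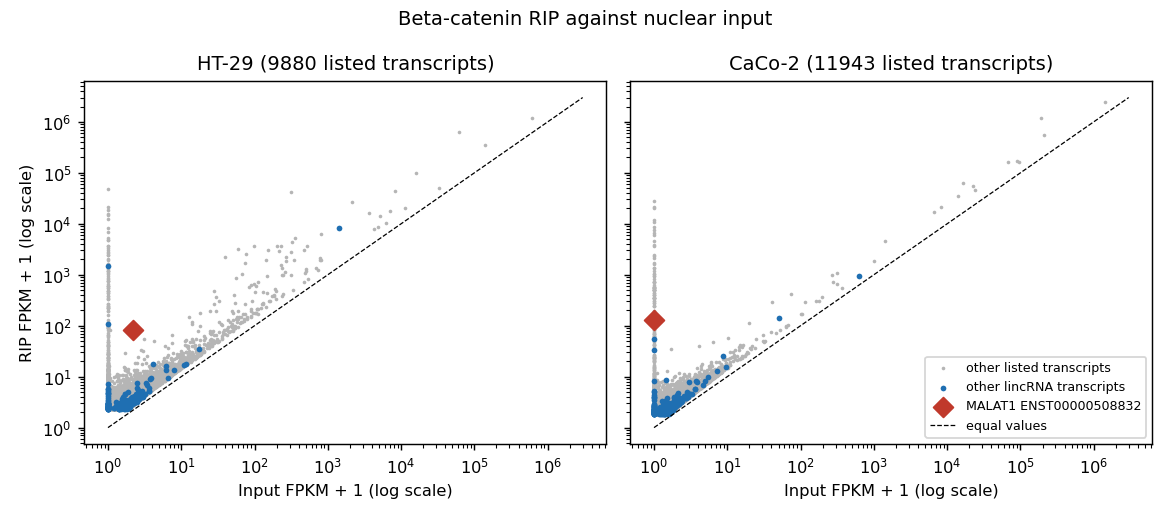
Each point is 1 listed transcript, with input FPKM + 1 on the horizontal and RIP FPKM + 1 on the vertical axis (both log scales), in HT-29 and CaCo-2; blue points are lincRNA transcripts, the red diamond is the MALAT1 isoform and the dashed line marks equal values. MALAT1 lies far above the line in both panels, at an input of 1.18 FPKM in HT-29 and on the column of transcripts listed at 0 in input in CaCo-2.

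RNAs that span under 200 nucleotides took most of the highest ratios in both tables. Over all listed transcripts MALAT1 ranked 100th of 9880 by log2 ratio in HT-29 and 75th of 11943 in CaCo-2. Among transcripts that span at least 200 nucleotides it was 9th of 9663 in HT-29 and 1st of 11737 in CaCo-2. The 8 above it in HT-29 were transcripts of RBPMS, U3, SCARNA2, RPS4X, RPL8, RP11-214N15.5, TPT1 and ANKRD10. Of these, 7 have an input listed at 0, and the exception is RPL8 at 0.0644 FPKM. The HT-29 rank among transcripts of this span depends on the pseudocount: MALAT1 was 150th with 0.1 FPKM added and 6th with 5 FPKM, an alternative chosen after seeing the data. In CaCo-2 it was 1st under both.

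Transcripts of about the same span as the MALAT1 isoform were also compared. Span is genomic, from start to end with any introns. Transcripts of like span can therefore differ in the transcript length that FPKM corrects for. Of transcripts spanning 1000 to 1500 nucleotides, HT-29 had 483 and CaCo-2 645. The median of their RIP levels was 2.39 FPKM (HT-29) and 1.46 FPKM (CaCo-2). MALAT1 was the second highest of them in the HT-29 RIP, after SERF2 at 118 FPKM, and the highest in the CaCo-2 RIP. By log2 ratio with 1 FPKM added it was 1st in both lines. The next was a transcript of GPX4, a selenoprotein that reduces lipid peroxides, in each line, with RIP levels of 25.2 FPKM (HT-29) and 5.75 FPKM (CaCo-2) and inputs listed at 0. These ratios, of different GPX4 transcripts in the lines, were 4.71 and 2.75, against 5.27 and 7.01 for MALAT1. The HT-29 order depends on the pseudocount. A smaller one raises the ratio of GPX4, with its input listed at 0, more than that of MALAT1. With 0.1 FPKM added, GPX4 passes the 6.03 of MALAT1 in HT-29, so MALAT1 is then not 1st there. Its exact rank among these spans with other pseudocounts was not computed.

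Within the class lincRNA, HT-29 listed 160 transcripts and CaCo-2 237, with median RIP levels of 2.01 and 1.41 FPKM. MALAT1 was 3rd by log2 ratio and 4th by RIP level in HT-29. The transcripts above it by either measure, SNORA71B, SCARNA2 and RMRP, are a small nucleolar RNA, a small Cajal body RNA and the RNA of RNase MRP, which the annotation places in this class. Below MALAT1 the HT-29 ratios, with 1 FPKM added, dropped from 5.27 to 2.87, the value of CTC-246B18.10. This drop depends on the pseudocount. CTC-246B18.10 had a RIP level of 6.31 FPKM and an input listed at 0. A smaller pseudocount raises its ratio more than that of MALAT1, and with 0.1 FPKM added it nearly reaches the 6.03 of MALAT1. Ranks within this class with other pseudocounts were not computed. In CaCo-2 MALAT1 led by log2 ratio, followed by SCARNA2 at 5.76 and SNORD3A at 5.03. By RIP level it was 3rd there, after both listed transcripts of MIR663A, at 957 and 141 FPKM, whose inputs were also high at 622 and 50.1 FPKM.

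**Figure D2:**
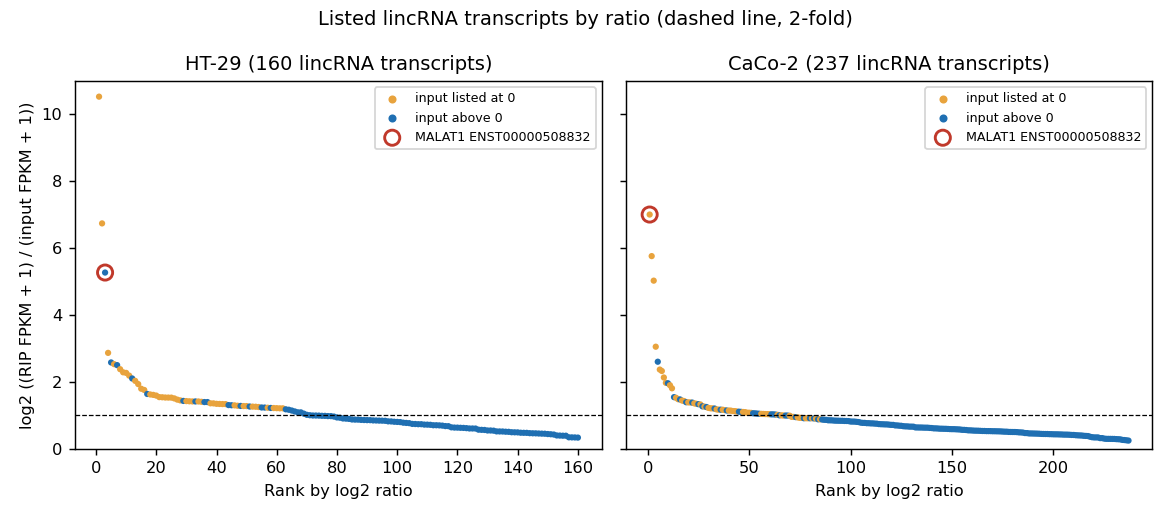
Listed lincRNA transcripts ranked by log2 ((RIP FPKM + 1) / (input FPKM + 1)) in HT-29 (160) and CaCo-2 (237); orange points have an input listed at 0, blue points an input above 0, the red ring is MALAT1 and the dashed line is 2-fold. With 1 FPKM added, MALAT1 is 3rd in HT-29, where it is the highest with an input above 0, and 1st in CaCo-2. The HT-29 order depends on the pseudocount. A smaller one raises transcripts with lower inputs more, such as CRNDE (HT-29 input 0.000838 FPKM, RIP 4.67 FPKM).

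The pattern recurred across the lines. Of the 1928 transcripts listed in both tables (19.5% of the HT-29 table and 16.1% of the CaCo-2 table), 1887 span at least 200 nucleotides. Ordered by the lower of their ratios in the lines, with 1 FPKM added, MALAT1 was second among these 1887, behind SCARNA2 and ahead of RPL8. This rank depends on the pseudocount and was not computed with others. A smaller one raises transcripts with lower inputs more than MALAT1, whose HT-29 input was 1.18 FPKM. An example is ALYREF, with inputs of 0.00159 FPKM (HT-29) and 0.00112 FPKM (CaCo-2). With 0.1 FPKM added, the lower ratios of ALYREF, CYBA and RPSA pass the 6.03 of MALAT1, which is then not second. With 1 FPKM added, the ratios of SCARNA2 were 6.74 (HT-29) and 5.76 (CaCo-2), those of RPL8 6.29 and 4.4. Of the 1887, 1 other transcript reached the RIP level of MALAT1 in both lines. It was the processed transcript of ANKRD30BL, named after its values were seen, at 296 FPKM in the CaCo-2 RIP, where its input was 116 FPKM. The MALAT1 level in the RIP was 1.54 times as high in CaCo-2 as in HT-29, where the median transcript listed in both was at 0.761 times its HT-29 level and 33.2% were higher in CaCo-2. The lowest RIP level listed was 1.31 FPKM in HT-29 and 0.842 FPKM in CaCo-2. The selection thus admits lower levels in CaCo-2, which bears on this median and share. The tables were normalised separately and each line has 1 RIP library. Whether the difference of MALAT1 between the lines exceeds the error between libraries was not tested.

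**Figure D3:**
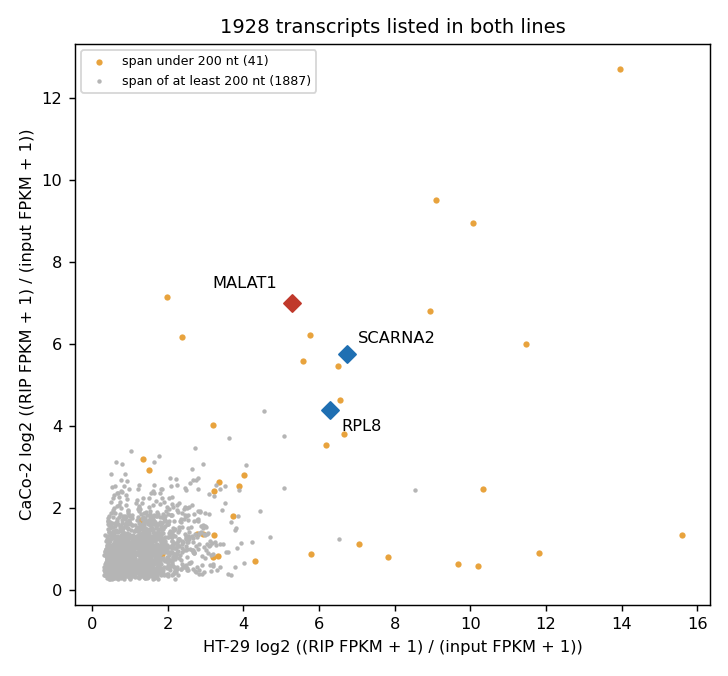
Log2 ratio of RIP over input (1 FPKM added to each) in HT-29 on the horizontal and CaCo-2 on the vertical axis for the 1928 transcripts listed in both lines; orange points span under 200 nucleotides, grey points at least 200. MALAT1 (red), at 5.27 and 7.01, lies with SCARNA2 and RPL8 (blue) away from the mass of grey points.

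The transcripts nearest to MALAT1 over the 4 libraries, by Euclidean distance of log2 (FPKM + 1) among the 1928, were SCARNA2 at 1.71, the 5S ribosomal RNA copy RNA5SP513 at 1.90, the Y RNA copy RNY3P8 at 1.98, RPL8 at 2.25 and the 5S copy RNA5SP267 at 2.64. The RIP level of SCARNA2 was 106 FPKM in HT-29 against 53.3 FPKM in CaCo-2, and that of RPL8, a retained-intron transcript, 82.4 FPKM against 34.5 FPKM. Of these 5, 4 are small RNAs or copies of them by name. Like MALAT1, RNY3P8 was a little higher in the CaCo-2 RIP (47.4 FPKM, against 46.8 FPKM in the RIP of HT-29), and the others were higher in that of HT-29. With 4 libraries, of which 2 are inputs near 0, this likeness is a description of few values.

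At q at or below 0.05, the deposited statistics do not call the MALAT1 isoform in either line. In the authors' deposited table its p-value is 0.9999 in HT-29, the highest of all 9880 transcripts, with a q-value of 0.99997. In CaCo-2 the deposited p-value is 0.475 and the q-value 1. Where the input is listed at 0, no deposited p-value in CaCo-2 exceeds 0.49996, and MALAT1 has the 24th highest of 3466. A high fold with a high p-value is common in the HT-29 table: 335 transcripts with an input above 0 have a deposited fold at least that of MALAT1, their median p-value is 0.911, and 1 of them has q at or below 0.05. Transcripts with a RIP level like that of MALAT1 had lower p-values: among the 94 HT-29 transcripts with an input above 0 and a RIP level within 2-fold of MALAT1, the median deposited p-value is 0.0461 and 13 have q at or below 0.05. The 94 include MALAT1 and were not matched to its input level or fold. Among them is SERF2, at 45.3 FPKM in the HT-29 input and 118 FPKM in the RIP. In CaCo-2, 36 transcripts have an input listed at 0 and a RIP level within 2-fold of MALAT1. None of them has q at or below 0.05 in the authors' deposited table, their median p-value is 0.274, and MALAT1 has the highest.

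**Figure D4:**
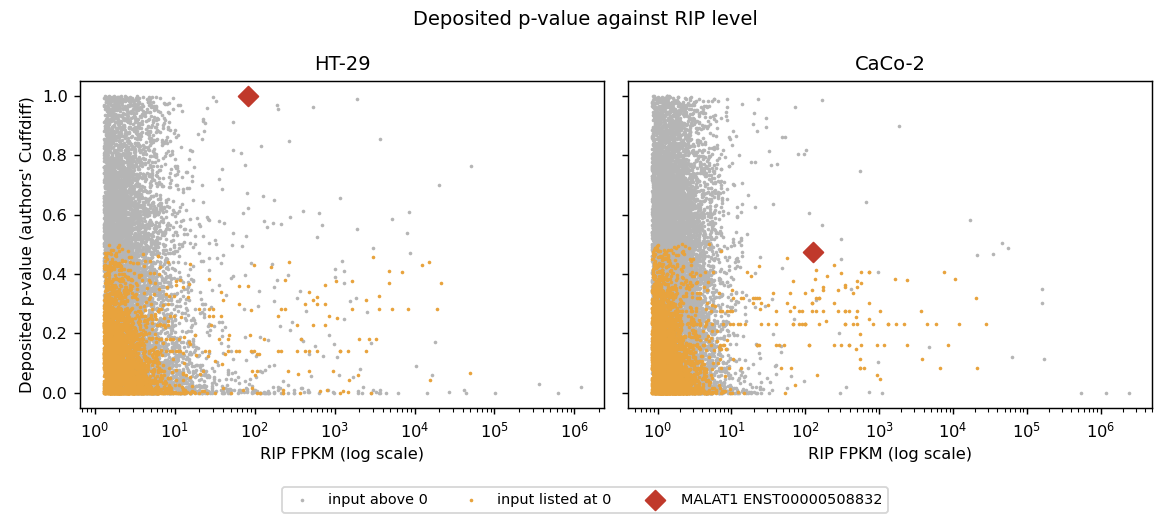
Deposited Cuffdiff p-value (vertical axis) against RIP FPKM (log scale) for each listed transcript of HT-29 and CaCo-2; grey points have an input above 0, orange points an input listed at 0, and the red diamond is MALAT1. MALAT1 is at the top of the HT-29 panel (0.9999) and near the upper edge of the orange points in CaCo-2 (0.475).

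The genes around MALAT1 were listed at far lower levels. Within 200 kb on either side of the locus, 12 other transcripts of 7 gene names were listed in HT-29, at 1.34 to 5.53 FPKM in the RIP, and 10 transcripts of 7 gene names in CaCo-2, at 1.01 to 4.47. Upstream in CaCo-2, FRMD8 (65154070 to 65180996) had 1.80 FPKM in input and 3.80 FPKM in the RIP, and the authors' deposited table gives it a q-value of 0.0362. NEAT1 lies between FRMD8 and MALAT1 in the RefSeq gene order, and the interval between these genes held no listed transcript in either line. Over the set of 19 neighbours, HT-29 had a listed transcript for 8 and CaCo-2 for 9. By the transcript with the highest RIP level, 5 of 8 and 6 of 9 reached 2-fold, against 55.6% (HT-29) and 41.0% (CaCo-2) of all gene names. All 5 in HT-29 and 3 of the 6 in CaCo-2 had an input listed at 0 and so passed by construction.

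Transcripts of genes whose proteins build the bodies in which MALAT1 and NEAT1 reside were listed in both lines at levels below that of MALAT1. Each gene is given by its transcript with the highest RIP level, which can differ between the lines. Of 27 paraspeckle protein genes, 18 were listed in HT-29, and 10 of these reached 2-fold (55.6%, equal to the share over all gene names), with a median log2 ratio of 1.03 against 1.12 over all. In CaCo-2, 17 passed the minimum of 1 FPKM and 5 reached 2-fold (29.4%, against 41.0% of all gene names), with a median of 0.81 against 0.83. NONO, a core paraspeckle protein that binds NEAT1, was listed by the same processed transcript in both lines, with an input of 3.0 FPKM and a RIP level of 7.13 FPKM in HT-29. In CaCo-2 its input was 5.19 FPKM and its RIP level 8.62 FPKM. HNRNPA1, a splicing repressor, had the highest RIP level of the set in HT-29, 27.6 FPKM over an input of 6.71 FPKM. HNRNPH1, also a splicing regulator, had the highest in CaCo-2, 13.7 FPKM over 7.42 FPKM. PSPC1, the third protein of the NONO family, was listed by nonsense-mediated-decay transcripts, with RIP levels of 4.48 FPKM (HT-29) and 6.70 FPKM (CaCo-2).

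Of 29 nuclear speckle protein genes, 21 were listed in HT-29 and 14 reached 2-fold (66.7%, against 55.6% of all gene names), 7 of them from an input listed at 0. In CaCo-2, 10 of 23 reached 2-fold (43.5%, near the 41.0% of all gene names), 4 of them from an input listed at 0. The median log2 ratios were 1.28 and 0.91, against 1.12 and 0.83 over all gene names. ALYREF, an mRNA export adaptor, led this set by RIP level in both lines, with 22.4 FPKM (HT-29) and 19.5 FPKM (CaCo-2) over inputs near 0. DDX39B, the helicase that recruits it, had 13.8 FPKM over an input of 0.682 FPKM in HT-29, and by another transcript 9.31 FPKM over 2.65 FPKM in CaCo-2. SON, a scaffold of the speckle core, had 8.75 FPKM over 3.51 FPKM in HT-29 and 5.38 FPKM over 2.84 FPKM in CaCo-2. The SON transcripts also differ between the lines. SRSF2, a splicing factor that marks speckles, had 13.7 FPKM over 8.70 FPKM in HT-29. The highest RIP level in these protein sets, 27.6 FPKM, was below the 83.0 and 128 FPKM of MALAT1.

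Factors that process or modify MALAT1 were a small set of 12 genes. In HT-29 7 were listed and 6 reached 2-fold, 4 of them from an input listed at 0, against 55.6% of all gene names. In CaCo-2 4 of 6 did, 1 of them from an input listed at 0, against 41.0% of all gene names. RPPH1, the RNA of RNase P that makes the 3′ cut, was listed in HT-29 by a transcript of the class antisense, with 47.7 FPKM in input and 197 FPKM in the RIP. ELAC2, the RNase Z that trims the released tRNA-like RNA, had a RIP level of 4.28 FPKM in HT-29 (input listed at 0) and 3.13 FPKM in CaCo-2 (input near 0). HNRNPC, which binds MALAT1 at a site opened by m6A, had a RIP level of 16.6 FPKM in HT-29 (input listed at 0) and 1.74 FPKM in CaCo-2 (input 0.757 FPKM). For ELAC2 and HNRNPC the transcripts differ between the lines. METTL3, the m6A methyltransferase, was listed by the same transcript, with 3.10 FPKM over an input of 0.250 FPKM in HT-29 and 3.02 FPKM over 1.31 FPKM in CaCo-2. METTL16, which binds the MALAT1 triple helix and was named after its value was seen, had 1.24 FPKM in the CaCo-2 RIP (input listed at 0). None of the transcripts given in this paragraph or for the protein sets had q at or below 0.05 in the authors' deposited table.

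Of 26 names of other nuclear or regulatory non-coding RNAs, 16 were listed in HT-29, where 10 reached 2-fold (62.5%, near the 55.6% of all gene names). In CaCo-2, 11 passed the minimum and 5 reached 2-fold (45.5%, near the 41.0% of all gene names). The median log2 ratios were 1.18 and 0.64, against 1.12 and 0.83 over all gene names. In HT-29 the highest levels belonged to short RNAs: RMRP had 8426 FPKM over an input of 1406 FPKM, and the GAS5 entry at 4811 FPKM is a small nucleolar RNA inside that host gene. The next 2 were named after their values were seen. FTX, an lncRNA of the X-inactivation centre, had 1.82 FPKM over an input of 0.762 FPKM in HT-29 and 2.14 FPKM over 1.20 FPKM in CaCo-2. OIP5-AS1, a lncRNA known mainly from the cytoplasm, had 2.86 FPKM over 1.37 FPKM and 2.48 FPKM over 0.686 FPKM. For FTX and OIP5-AS1 the transcripts differ between the lines. In CaCo-2 the highest RIP level of this set was 7.11 FPKM, that of DANCR, against 128 for MALAT1. In HT-29, 3 entries of the set, RMRP, GAS5 and RPPH1, were above the 83.0 FPKM of MALAT1, and the next, EPB41L4A-AS1, had 17.1 FPKM.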

How the data were processed

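RNA of nuclear lysate (input) and of a beta-catenin precipitation was sequenced from 2 cell lines, 1 library each. Tools were, per the submitters' processing notes, CASAVA 1.4, TopHat2 2.0.8 with Bowtie2, Cuffdiff and Cufflinks, and the build was hg19; the annotation release is not given in the sources used here. The authors deposited FPKM values per Ensembl transcript, with log2 fold, p-value and q-value from Cuffdiff, 1 table per line. The deposited test statistic and the log2 fold take a placeholder where input is 0. Deposited starts count from 0 and were raised by 1; of 16 microRNA entries with a RefSeq hairpin, 14 then had the hairpin's length.

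Ratios were taken on a log2 scale after adding 1 FPKM to each library, which understates the ratio of weakly covered transcripts. A transcript was kept if either library reached 1 FPKM, and counted from 2-fold. A kept transcript with an input listed at 0 thus passes 2-fold by construction, also in the gene lists. Gene lists used the transcript with the highest RIP FPKM per gene. Calculations used Python 3.11.15 and pandas 2.3.3. They were run on simulated data without noise and without an input of 0, which checks only the arithmetic of the ratio and the count. Alternatives were the pseudocount, the filter, the deposited fold and summing. Named genes were MALAT1 and NEAT1, the 5 nearest transcripts and up to 4 per list by RIP level; others were chosen after their values were seen. The members and lists were chosen with earlier results of these data known. Unmapped columns of per-sample values numbered 0. The values of 1 gene near MALAT1 are not reported here.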

Additional observations from a re-analysis of the deposited data

How the results depend on the processing

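The MALAT1 isoform passed 2-fold under every alternative that kept it: both pseudocounts and no filter in each line, and in HT-29 also the deposited fold and a minimum of 1 FPKM in both libraries. In CaCo-2, where the input is listed at 0, the deposited fold is a placeholder and that minimum leaves no member. With 0.1 FPKM added its log2 ratio was 6.03 (HT-29) and 10.32 (CaCo-2), and 3.83 and 4.73 with 5 FPKM. Summing over listed transcripts, or taking the highest, gave 5.27 and 7.01, since 1 transcript is listed; leaving out transcripts listed at 0 in input gave 5.27 in HT-29 and no value in CaCo-2. Planned values for NEAT1 could not be computed. The share of transcripts with at least 1 FPKM in a library (all 9880 listed in HT-29, 10116 of 11943 in CaCo-2) past 2-fold with 0.1 FPKM added was 74.8% (HT-29) and 67.2% (CaCo-2), 6.96% and 2.76% with 5 FPKM, and 77.1% and 71.3% by the deposited fold, where the placeholder of an input of 0 counts as passed. It was 25.2% and 13.1% with at least 1 FPKM in both libraries, and 34.6% over all 11943 without a filter in CaCo-2. A fit of RIP against input paired by line was not made, since the selection of the tables fixes the direction of every pair. Depth is unknown, so no counting interval can be given for any FPKM.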
